A study of Mus musculus with 2 samples.

Results

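miR-21a is a microRNA (miRNA) whose hairpin gives a mature RNA from each arm, miR-21a-5p and miR-21a-3p (mmu-miR-21a-5p and mmu-miR-21a-3p in the tables). The members were chosen by name: both arms, and the near-identical miR-21b and miR-21c where a table listed them. Of these 4 names, 3 were listed among the 1477 miRNA names found in either library. miR-21c was listed in neither. The study comprised 2 replicate libraries of 1 group. In both, keratinocytes cultured from mouse skin in a low-calcium medium carried exogenous Dsp-BirA, a fusion of the desmosomal protein desmoplakin with the biotin ligase BirA, and were treated with biotin. Biotin-labelled proteins and the RNA bound to them were captured on streptavidin beads, in order to read RNA carried by Argonaute proteins near desmosomes. Whether the recovered RNA was carried in this way was not tested here. The promoter of the fusion and the number of cultures or animals behind the cells are not given in the sources used here, and any spread between the libraries may be technical. No input or unlabelled library was analysed here, so the values are levels of recovered reads and not enrichments over the cell.

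A miRNA hairpin is cut into a short duplex, and one strand is usually kept by an Argonaute protein as the guide while the other, the passenger, is mostly lost. The guide pairs with target mRNAs mainly through its seed, bases 2 to 8 counted from 1 at the 5′ end, and lowers the output of the target. miR-21 is among the most studied miRNAs: in skin and other epithelia it is linked to proliferation, wound repair and tumour growth, and its known targets include the growth-restraining genes Pdcd4 and Spry1. It is also abundant in fibroblasts and many blood cells, so it is not a marker of keratinocytes.

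The mature sequences are shown because they set which names share a seed and which reads could be told apart. They are from RefSeq (GRCm38.p6, 5′ to 3′), with the seed in capitals.
miR-21a-5p: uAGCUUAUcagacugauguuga
miR-21a-3p: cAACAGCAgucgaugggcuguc
miR-21b: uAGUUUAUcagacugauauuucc
miR-21c: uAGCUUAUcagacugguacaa

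miR-21a-5p and miR-21c have the same seed, AGCUUAU, which would pair with the site AUAAGCU in a target. No other name among the 1679 mature sequences of the reference table has it. Sequences were found for 1231 of the 1477 listed names (83.3%), and among those miR-21a-5p was the 1 name with this seed. miR-590-5p, listed with 7 counts in replicate 1 and 0 in replicate 2, has no entry in the table. Its seed could therefore not be compared with that of miR-21a-5p. miR-21b differs from miR-21a-5p by C4U inside the seed, and by G18A, G21U and A22C near the 3′ end, with positions counted from 1 at the 5′ end of miR-21a-5p and the base of miR-21a-5p written first. Its seed, AGUUUAU, is thus another one. miR-21c is identical to miR-21a-5p over the first 15 bases and differs by A16G, G18A, U19C, U20A and G21A. The seed of miR-21a-3p, AACAGCA, was found in no other mature sequence of the table.

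The names come from 3 genes on different chromosomes. Mir21a lies at chr11:86584067-86584158 on the minus strand (GRCm38.p6), within the span of the protein-coding gene Vmp1, which is on the same strand. It starts 209 bases inside the lower-coordinate end of Vmp1, which is the 3′ end of that gene. miR-21a-5p occupies chr11:86584120-86584141 and miR-21a-3p chr11:86584082-86584103. Mir21b, at chr3:29636744-29636851 on the plus strand, lies within the protein-coding gene Egfem1, and Mir21c, at chr8:128278148-128278225 on the minus strand, within the non-coding gene A930035F09Rik. Whether these positions are exonic or intronic was not analysed here.

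miR-21a-5p, the guide arm, was recovered at a high and nearly equal level in both libraries. It had 118778 counts of 3776893 miRNA counts in replicate 1 and 128181 of 4122955 in replicate 2. In counts per 1000000 miRNA counts (CPM) these were 31449 CPM (Wilson 95% interval 31273 to 31625) and 31090 CPM (30923 to 31258), a mean of 31269 ± 254 CPM (SD, n = 2), or 3.13% ± 0.025 of all miRNA counts. Intervals cover counting error of reads only, since copies made by PCR cannot be told from separate molecules. The coefficient of variation over the libraries was 0.812%.

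miR-21a-3p, the passenger arm, was present at a far lower level. It had 732 counts in replicate 1 (194 CPM, Wilson 95% interval 180 to 208) and 1074 in replicate 2 (260.5 CPM, 245 to 277). Its mean was 227 ± 47.2 CPM (SD, n = 2), with the higher value in replicate 2. miR-21b had 2 counts in replicate 1 (0.530 CPM, 0.145 to 1.93) and 58 in replicate 2 (14.1 CPM, 10.9 to 18.2), so nearly all of its counts came from 1 library. miR-21c had 0 counts in both, which allows up to 3 counts, or 0.794 CPM in replicate 1 and 0.728 CPM in replicate 2.

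**Figure D1:**
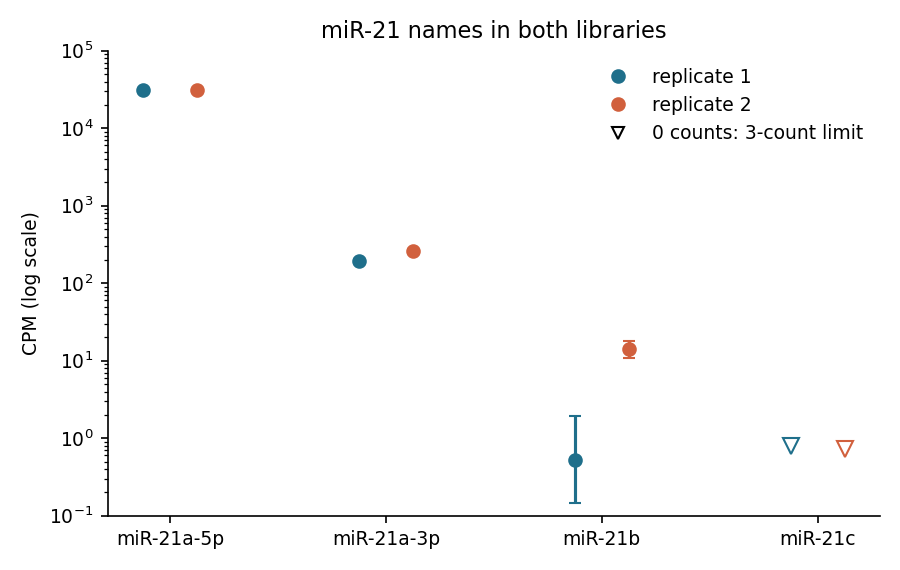
Level of the 4 miR-21 names in each library, in CPM on a log scale; points are single libraries, bars are Wilson 95% intervals (smaller than the point for the miR-21a arms), and open triangles mark the limit that a count of 0 allows. miR-21a-5p sits near 31269 CPM in both libraries, miR-21a-3p near 227 CPM, and the miR-21b points are far apart.

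Ranked by mean CPM, miR-21a-5p was number 6 of the 1477 names, at rank 6 in replicate 1 and rank 7 in replicate 2. The 5 names above it together took 39.1% ± 0.378 of all counts (SD, n = 2). The median name had a mean of 4.99 CPM. miR-31-5p, the most abundant name, had 4.54 ± 0.0802 times the counts of miR-21a-5p.

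The order around miR-21a-5p was close. Directly above it, miR-205-5p, a miRNA of stratified epithelia, had 1.06 ± 0.0207 times its counts (SD, n = 2), with 1.07 times in replicate 1 and 1.04 in replicate 2. miR-141-3p, of the epithelial miR-200 group, had 1.20 ± 0.0598 times, and miR-27a-3p 2.14 ± 0.0248 times. Below it came miR-23a-3p and miR-23b-3p, which miR-21a-5p exceeded 1.19 ± 0.0269 and 1.22 ± 0.00858 times. Each of these 5 gaps ran the same way in both libraries and was larger than the SD of its ratio. With 2 libraries, an exact sign-flip test (two-sided) has 0.5 as its smallest possible p-value, so the order was set against the SD only.

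The exception was miR-5099, a name of unclear function, which had 57754 counts in replicate 1 and 151461 in replicate 2. miR-21a-5p had 2.06 times its counts in replicate 1 and 0.846 times in replicate 2, so their order was not settled. The step of miR-21a-5p from rank 6 to rank 7 followed the move of miR-5099, which went from rank 14 to rank 5.

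miR-21a-3p was number 164 by mean CPM, at rank 174 in replicate 1 and rank 160 in replicate 2, above 89.0% of the other listed names. Most of its neighbours could not be ordered. miR-361-5p, directly above, had 1.01 ± 0.0311 times its counts, and miR-21a-3p had 1.14 ± 0.674 times those of miR-877-3p, directly below (SD, n = 2). miR-425-3p had 1.05 ± 0.0357 times and miR-106a-5p 1.08 ± 0.253 times, while miR-21a-3p had 1.06 ± 0.406 times the counts of miR-3473d and 1.03 ± 0.202 times those of miR-466k. Of these 6, miR-425-3p alone differed by more than the SD of its ratio, and it was the higher in both libraries.

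The names most like each arm were found by the distance between log2(CPM) values in the 2 libraries, over the 985 other names listed in both. For miR-21a-5p these were miR-205-5p (distance 0.11), miR-23a-3p (0.36) and miR-141-3p (0.37). For miR-21a-3p they were miR-361-5p (0.047), miR-425-3p (0.10) and miR-296-3p (0.13). All 3 were higher in replicate 2, as miR-21a-3p was, which follows from their choice by this distance. With 2 libraries such a distance describes the level and little else.

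**Figure D2:**
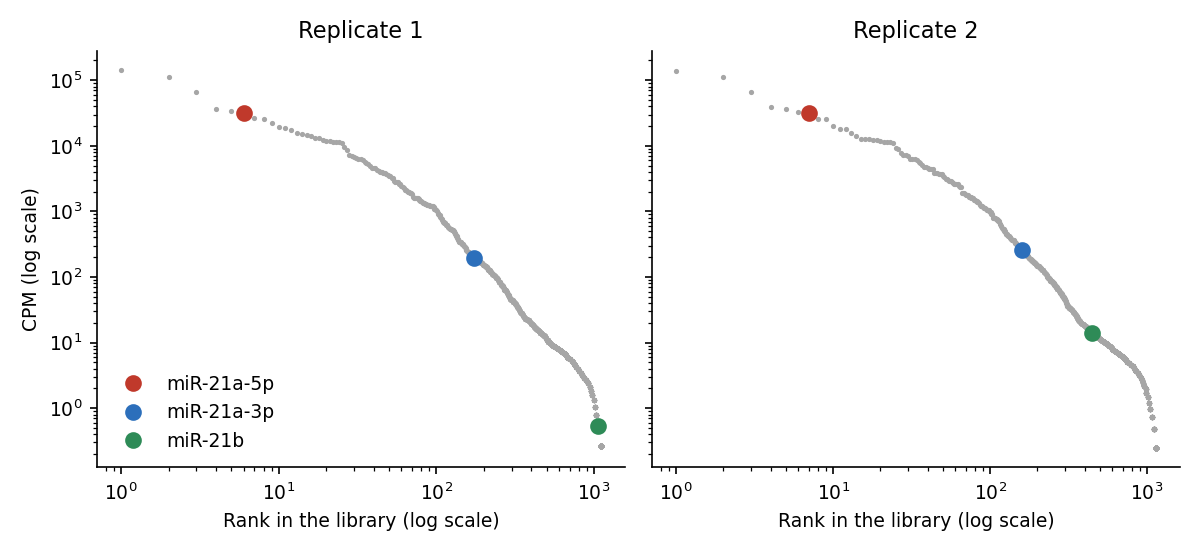
CPM of every listed miRNA name (grey points) against its rank in replicate 1 (left) and replicate 2 (right), both axes on log scales. miR-21a-5p sits at ranks 6 and 7 on the upper shoulder of both curves, miR-21a-3p at ranks 174 and 160, and miR-21b at rank 1063 in replicate 1 and 448 in replicate 2.

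Nearly all reads of the miR-21a hairpin came from its 5p arm. The share was 99.4% of 119510 arm counts in replicate 1 (Wilson 95% interval 99.3% to 99.4%) and 99.2% of 129255 in replicate 2 (99.1% to 99.2%), with a mean of 99.3% ± 0.154 (SD, n = 2). miR-21a-5p thus had 162 times the counts of miR-21a-3p in replicate 1 and 119 times in replicate 2. The exact two-sided binomial test of 5p against 3p counts passed the Benjamini-Hochberg adjusted threshold of 0.05 in each library. That test was passed in both libraries, with the same arm higher, by 150 of the 164 hairpins that had names for each arm and 100 counts or more per library (91.5%), and by 96 of them with the 5p arm higher (58.5%), so passing it does not set miR-21a apart.

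The degree of the bias places it better. miR-21a was more one-sided than 126 of the other hairpins and less than 37, where the median share of the higher arm was 94.6%. It was number 5 of these hairpins by counts. Against the 11 hairpins whose counts were within 3 times of its own, it was less one-sided than 8 and more than 3. Their higher arm held between 98.9% and 99.99% of the counts, with a median of 99.95%. In CPM the passenger miR-21a-3p was not rare. It was higher than the lower arm of 148 other hairpins, of any abundance, and lower than that of 15. The median lower arm had 22.8 CPM.

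**Figure D3:**
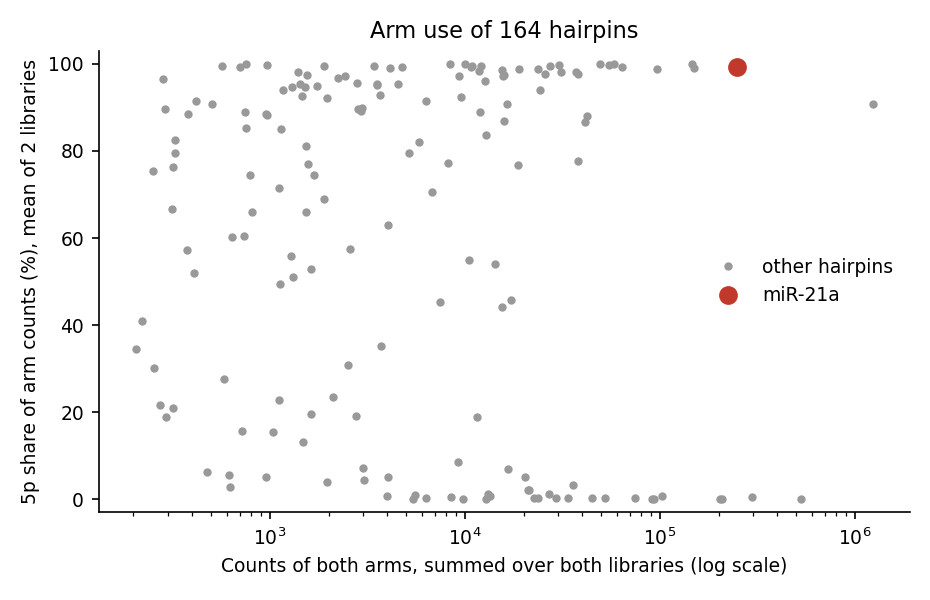
Share of arm counts from the 5p arm (mean of 2 libraries, %) against the counts of both arms summed over both libraries (log scale) for 164 hairpins. miR-21a (red) lies at 99.3% and is number 5 by counts, in a range where hairpins fall near 0% or near 100%.

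The sequences of the arms pair with each other along most of their length. RNAcofold predicted 19 base pairs between miR-21a-5p and miR-21a-3p, with a free energy of -24.2 kcal per mol. All 7 seed bases of miR-21a-5p were paired, and 6 of those of miR-21a-3p. The 3′ end of miR-21a-3p hung over by 2 bases and that of miR-21a-5p by 1. Inside the duplex 2 bases of the 5p arm and 1 of the 3p arm were unpaired. This is a prediction from the sequences alone.

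The libraries differed little for miR-21a-5p and more for the other members. After scaling by the totals, miR-21a-5p had a log2 ratio (replicate 2 over replicate 1) of -0.017 (exact 95% interval -0.028 to -0.0052). This small difference passed an exact two-sided binomial test on reads (adjusted p = 0.00701). Its sign depended on the scaling, with 0.0018 under DESeq2 size factors and 0.0040 in a total without names numbered 2000 and above, and neither passed (adjusted p = 0.810 and 0.548). The ratio stayed negative and passed the same test under TMM scaling (-0.014, adjusted p = 0.0225) and without miR-31-5p in the total (-0.025, adjusted p = 2.97e-05). miR-21a-3p had a log2 ratio of 0.43 (0.29 to 0.56), or 1.34-fold, with an adjusted p = 2.45e-09 in the same exact test. miR-21b had a ratio of 26.6-fold (7.03 to 225), from 2 counts against 58, with an adjusted p = 1.80e-13. The test compares libraries of 1 group on counting error, and of 1002 names averaging 10 counts or more, 707 passed it (70.6%). Of these, 363 were higher in replicate 2 (36.2%), as miR-21a-3p and miR-21b were, and 344 lower (34.3%), as miR-21a-5p was under this scaling. Passing it therefore does not set these members apart.

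Set against names of similar abundance, within 3 times of the mean count of the member, miR-21a-5p was among the steadiest. Of 22 such names 3 had a smaller absolute log2 ratio, the median was 0.057, and 18 passed the test. For miR-21a-3p, 98 of 143 such names (68.5%) had a smaller ratio, with a median of 0.28. For miR-21b there were 634 such names, of which 149 were listed in 1 library only and so have no measured ratio. Of the other 485, 462 (95.3%) had a smaller absolute log2 ratio than miR-21b and 23 equalled or exceeded it. Over all 634 names, these 462 were 72.9%. The median of the 485 was 1.14. The split of miR-21a-3p was thus on the wider side of what names at its depth showed. That of miR-21b was near the edge of the measured ratios, which leave out the 149 names listed in 1 library only.

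**Figure D4:**
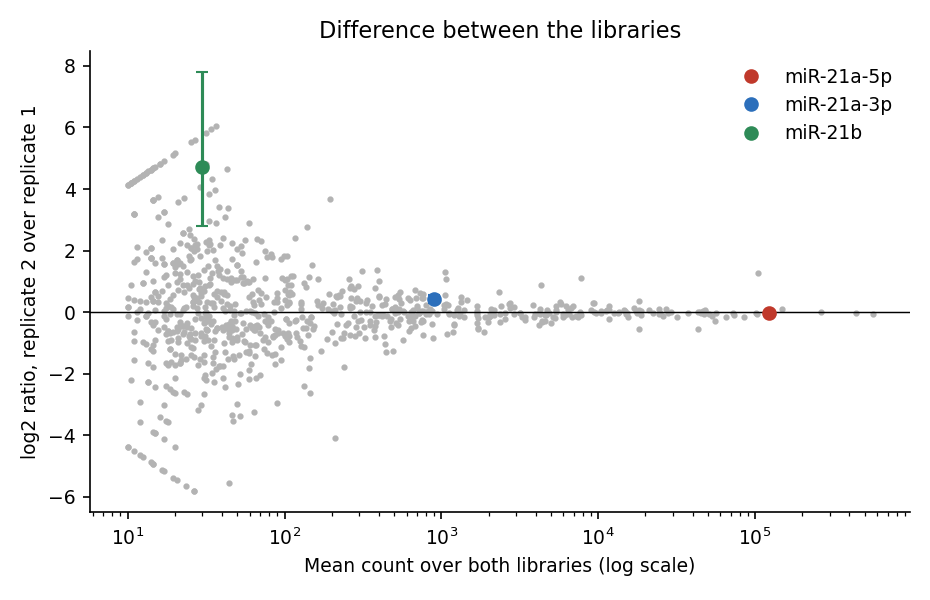
log2 ratio of replicate 2 over replicate 1 against the mean count (log scale) for names averaging 10 counts or more that were listed in each library (grey); coloured points are the members, with exact 95% intervals. The grey cloud widens toward low counts; scaled by library totals, miR-21a-5p lies at -0.017 (0.0018 under DESeq2 size factors), miR-21a-3p at 0.43, and miR-21b is high with a wide interval.

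Because miR-21a-5p held steady while miR-21a-3p was higher in replicate 2, the passenger share differed: it was 0.613% (Wilson 95% interval 0.570% to 0.658%) in replicate 1 and 0.831% (0.783% to 0.882%) in replicate 2. The odds of a 3p read were 1.36 times as high in replicate 2 (exact 95% interval 1.24 to 1.50), with an adjusted p = 8.46e-10 in Fisher's exact test over the 164 hairpins. That test was chosen after the values were seen, and 112 hairpins passed it (68.3%), 55 of them with the 3p share higher in replicate 2 (33.5%). Among the 150 hairpins with counts in every arm and library, 51 had a smaller absolute log2 odds ratio than the 0.44 of miR-21a, and the median was 0.69.

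miR-21b did not keep 1 ratio to miR-21a-5p, the name it most resembles. miR-21a-5p had 59389 times its counts in replicate 1 and 2210 times in replicate 2. How reads that match both names, or match one with a mismatch, were assigned is not stated in the sources used here. Adding miR-21b to miR-21a-5p gave 31276 ± 244 CPM (SD, n = 2), against 31269 ± 254 without it.

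miR-21a-5p was next set beside miRNAs linked to growth. In a list of 13 proliferation-linked miRNAs, 12 were below miR-21a-5p in both libraries and miR-31-5p was above. Of all 1476 other names, 1470 (99.6%) were below it in both, so these counts follow from its rank and say nothing particular to the list. The list had a median of 3744 CPM, against 3076 CPM for the growth-restraining list below and 4.99 CPM over all listed names. Of those 1477 names, 491 were listed in 1 library only. The lists were chosen with earlier results of these data known. Next in the list after miR-31-5p, miR-19b-3p of the growth-promoting miR-17-92 cluster had 6191 ± 298 CPM (SD, n = 2). miR-21a-5p had 5.06 ± 0.284 times its counts. It had 6.63 ± 0.163 times the counts of miR-17-5p of that cluster, 7.37 ± 0.575 times those of miR-222-3p, which targets a cell-cycle inhibitor, and 25.3 ± 0.0443 times those of miR-25-3p. miR-155-5p, known from activated immune cells, had 13 counts in replicate 1 and 0 in replicate 2, and miR-184-3p had 1 and 2.

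All 8 miRNAs of a list linked to growth restraint or differentiation were also below miR-21a-5p in both libraries, against the same 99.6% of all names, with a median of 3076 CPM. miR-24-3p was the highest with 12207 ± 348 CPM, and miR-21a-5p had 2.56 ± 0.0939 times its counts. It had 3.87 ± 0.246 times the counts of let-7b-5p, 7.09 ± 0.209 times those of miR-203-3p, which is known to restrain epidermal stem cells, and 27.1 ± 1.21 times those of miR-34a-5p, a target of p53. The 8 together had 33960 ± 634 CPM, and miR-21a-5p alone came to 0.921 ± 0.00971 times that sum (SD, n = 2). These are ratios of reads, and ligation and amplification can favour one sequence over another.

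The epithelial label was checked against markers, since miR-21 is made by many cell types. All 7 epithelial miRNAs were found in both libraries, with a summed level of 105854 CPM in replicate 1 and 106177 CPM in replicate 2, and miR-141-3p and miR-205-5p were above miR-21a-5p. The 5 mesenchymal markers summed to 24.9 and 101 CPM, of which 2 were at 0 in 1 library (miR-199a-5p in replicate 1, miR-143-3p in replicate 2). The 6 blood markers summed to 6.09 and 17.7 CPM, with miR-451a and miR-144-3p (red cells) and miR-142-5p at 0 in replicate 1 and miR-142-3p at 0 in replicate 2, and miR-21a-5p had 5164 times that sum in replicate 1 and 1756 times in replicate 2. The endothelial pair, miR-126a-3p and miR-126a-5p, had 515.5 and 426 CPM in sum. Taken singly, miR-126a-3p had 346 and 265 CPM, above miR-21a-3p in both libraries but barely so in replicate 2. miR-126a-5p had 169 and 161 CPM, below it in both. The 3 muscle markers summed to 34.7 and 20.4 CPM, with miR-1a-3p at 0 in replicate 1 and miR-133a-3p in replicate 2. The 2 neural ones summed to 114 and 102 CPM, with miR-124-3p at 0 in replicate 2. Over all 1477 listed names, 986 were found in both libraries and 491 in 1 only, so a 0 in 1 library was common among all names. The mesenchymal and blood sums were higher in replicate 2, as miR-21a-3p and miR-21b were, while miR-21a-5p was not. The endothelial, muscle and neural sums were lower in replicate 2. For the mesenchymal list the rise rested on miR-214-3p, with 26 and 364 counts. Without it the sum over 4 names was 18.0 CPM in replicate 1 against 12.9 in replicate 2. No blood marker had 10 counts or more in both libraries, and miR-142-3p went from 15 counts to 0. The part of these cell types in the miR-21 values was not tested.

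**Figure D5:**
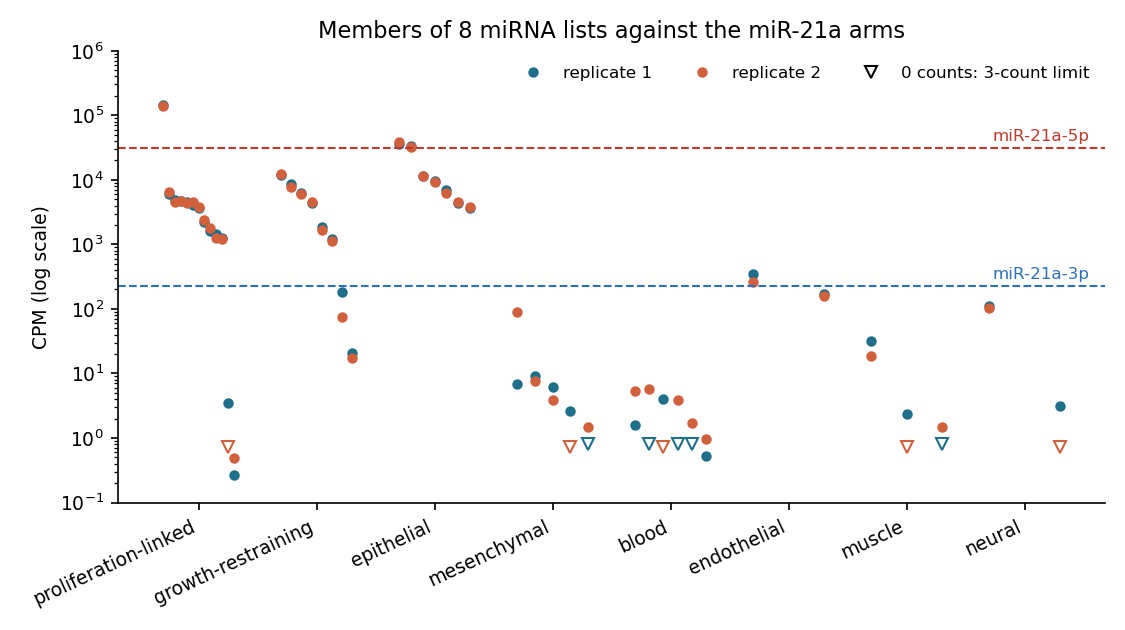
CPM (log scale) of each member of 8 miRNA lists in replicate 1 and replicate 2; open triangles mark the limit that a count of 0 allows, and dashed lines mark the mean of each miR-21a arm. Of the 46 list entries, miR-31-5p, miR-141-3p and miR-205-5p lie above the line of miR-21a-5p; the mesenchymal, blood, muscle and neural members lie below that of miR-21a-3p.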

How the data were processed

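For each library the authors deposited a table without a header that pairs mature miRNA names with raw counts. Per the submitters' processing notes, cutadapt, Novoalign and the build mm10 were used; versions, the miRNA reference, the treatment of PCR copies and of reads matching several names are not given in the sources used here. Names absent from a table were set to 0. Cali_12 and Cali_7, which are not miRNA names, were left out (0.00265% and 0.000218% of counts in replicates 1 and 2).

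CPM used the miRNA total of each library. Exact binomial tests covered all names averaging 10 counts or more, and arm tests all hairpins with at least 100 counts per library, with Benjamini-Hochberg adjustment. They were tried on simulated data that held counting error only. There the replicate test recovered 62.5% of 2-fold changes, and 3.85% of its calls were false. The arm test recovered 99% of hairpins with a simulated arm share of 0.7. Such data hold no further spread between libraries, so error rates on the real counts were not tested. Scaling alternatives used edgeR 4.0.16 and DESeq2 1.42.0 (R 4.3.3); other steps used Python 3.11.15, numpy 2.4.6, pandas 2.3.3, scipy 1.17.1, matplotlib 3.10.9 and ViennaRNA 2.7.2. With 1 group there was no test between conditions.

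The members and lists were chosen with earlier results of these data known. The naming rule covered the members, names sharing a seed, 3 rank neighbours on each side, the 3 nearest names, the most abundant name and all list members. Sequences and genes are RefSeq (GRCm38.p6, which is mm10).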

Additional observations from a re-analysis of the deposited data

How the results depend on the processing

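Scaling by TMM or DESeq2 left the mean of miR-21a-5p within its SD. It was 36450 CPM when miR-31-5p was taken out of the total and 34524 CPM in one without names numbered 2000 and above, which follows from the smaller totals; miR-21a-3p stayed within its SD in both. The log2 ratio of miR-21a-5p between the libraries turned to 0.0040 without those names and 0.0018 under DESeq2 size factors. It stayed negative under TMM (-0.014), without miR-31-5p in the total (-0.025) and with 1 count added to each library (-0.017). It passed the threshold in each of these. The ratio of miR-21a-3p kept its direction and its side of the threshold under all 5 alternatives. The rank of miR-21a-3p was 149 without names numbered 2000 and above. Leaving out each library gave ranks of 6 to 7 for miR-21a-5p and 160 to 174 for miR-21a-3p. The number of names differing between the libraries was 254 among names averaging 100 counts or more, out of fewer names tested. Hairpins with one arm higher in both libraries numbered 227 at 20 counts and 97 at 1000. The numbers tested at these minimums were not worked out. These counts are therefore given without a share and are not set here against the main shares of 70.6% of names and 91.5% of hairpins. The arm split kept its direction with 1 count added to each arm, a setting chosen after seeing the data. Depth limits miR-21b, with 2 counts in replicate 1, and miR-21c, with none. No paired analysis was possible because the series has a single group.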
